A study of Arabidopsis thaliana with 3 samples.

Results

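The SWEET family encodes membrane proteins that let sugars pass down their concentration gradient, and its clades I and II hold the members numbered 1 to 8. The 7 genes described here are those of SWEET1 to SWEET8 that had a probe set annotated to exactly 1 gene under a SWEET symbol, out of 13356 genes with such a probe set on the array. They are SWEET1 (AT1G21460), SWEET2 (AT3G14770) and SWEET3 (AT5G53190) of clade I, and SWEET4 (AT3G28007), SWEET6 (AT1G66770), SWEET7 (AT4G10850) and SWEET8 (AT5G40260) of clade II. Where a gene had several probe sets, the one used was to be chosen by the highest mean log2 level over the 3 arrays, but each of the 7 had 1, so measured levels decided nothing. The family was picked with earlier results of the same arrays known, so the counts below describe it and are not independent support. SWEET5 (AT5G62850) is listed under its older symbol AtVEX1 and falls outside that choice, and its values are given separately.

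RNA was measured in shoots of Arabidopsis thaliana grown for 10 days in constant light at 22 °C. The groups were the Col wild type, with 2 arrays, and the flp-1/myb88 double mutant, with 1 array. FLP and its relative MYB88, both MYB transcription factors, restrict divisions at the end of the stomatal lineage, and flp-1 is an allele of FLP. The labels do not describe the myb88 allele or say if each Col array had its own plants. A p-value thus reflects the spread between those 2 arrays alone, which may be technical. For each gene, that spread was taken largely from all probe sets together and less from the gene itself. The mutant had no replicate.

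SWEET proteins work without an energy source, and so the direction of flow follows the sugar itself. As background, members of clades I and II are known mainly as carriers of glucose and other hexoses, members of clade III as carriers of sucrose that load the phloem, and members of clade IV as carriers of fructose in the vacuole membrane. In leaves the family is known for moving sugar out of the cells that make it. Several clade II genes are better known from anthers and pollen than from leaves.

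Transcripts of 6 of the 7 genes were lower in flp-1/myb88 than in Col, and none was higher. Over all 22746 probe sets tested, 14.4% were called lower and 11.9% higher by limma at a Benjamini-Hochberg adjusted p under 0.05, a linear model fitted to log2 intensities. The largest falls were those of SWEET6, to 4.72-fold below Col, and of SWEET2, to 3.84-fold below. SWEET3, SWEET4, SWEET7 and SWEET8 lay between 2.15-fold and 2.31-fold below Col. SWEET1 lay between the Col arrays. Shoots were measured whole, so fewer cells of a type and less RNA per cell cannot be told apart.

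In clade I, SWEET2 gave the clearest separation. SWEET2 encodes a glucose carrier of the vacuole membrane, known from roots for holding sugar back from the soil. Its log2 level in Col was 7.42 on the first array and 7.33 on the second, against 5.44 in the mutant, or intensities of 172, 161 and 43.3. The Col arrays differed by 0.09 log2 units, the narrowest gap among the 7 genes, and the mutant lay far below both. The difference was -1.94 ± 0.30 log2 (SE; limma adjusted p = 0.000933).

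SWEET3 had log2 levels of 7.05 and 7.39 in Col, against 6.11 in the mutant. Both Col arrays were above the mutant array by more than they differed from each other. The fall was 1.11 ± 0.31 log2 (limma adjusted p = 0.0197).

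SWEET1 encodes a glucose carrier of the plasma membrane and was among the first SWEET proteins described. Its log2 level in Col was 7.18 on the first array and 7.94 on the second, against 7.86 in the mutant. The mutant was above the first Col array and just below the second. The difference of 0.29 ± 0.35 log2 did not pass the threshold (limma adjusted p = 0.568), and its 95% interval, from -0.46 to 1.05, leaves room for a rise as large as 1.05 or a fall of 0.46. Without Col replicate 1 the difference was -0.09 and without Col replicate 2 it was 0.68, so its sign depended on the Col array used.

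**Figure D1:**
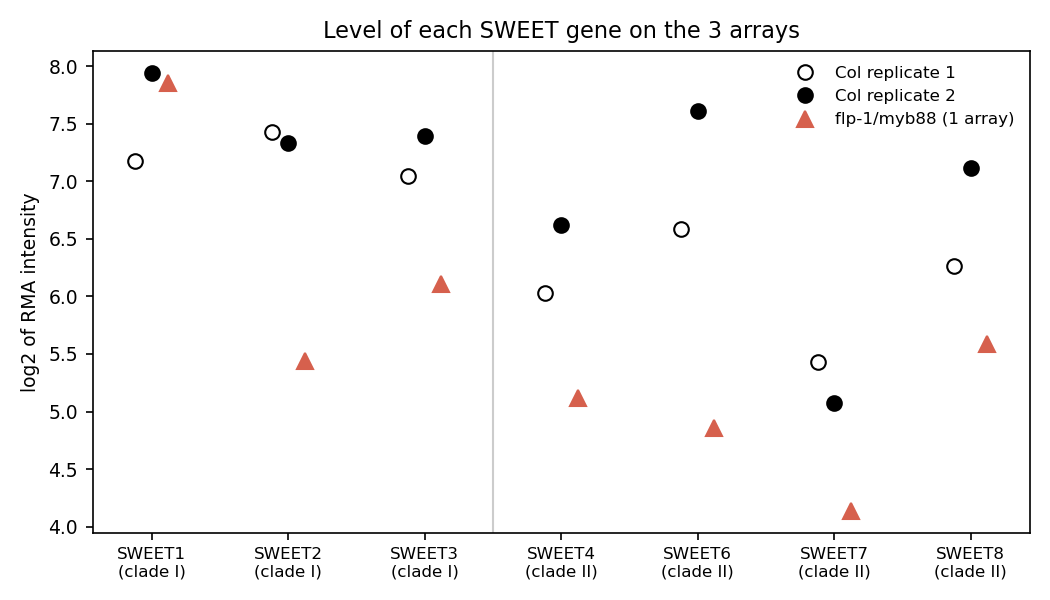
Log2 of the RMA intensity (vertical axis) of the 7 SWEET genes on each of the 3 arrays, with open circles for Col replicate 1, filled circles for Col replicate 2 and triangles for the one flp-1/myb88 array. The triangle lies below both circles for every gene but SWEET1, and heights of different genes are not comparable because each probe set has its own brightness.

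In clade II, all 4 of the chosen genes fell. SWEET6, for which fructose transport has been shown in yeast cells, had log2 levels of 6.59 and 7.61 in Col, against 4.86 in the mutant, or intensities of 96.0, 195 and 29.0. The mutant was below both Col arrays, but the Col arrays stood 1.02 log2 units apart, the widest gap of the 7 genes. The difference was -2.24 ± 0.38 log2 (limma adjusted p = 0.00163), and its size ran from -2.75 without Col replicate 1 to -1.73 without Col replicate 2.

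SWEET4, a hexose carrier known from the veins of leaves, had log2 levels of 6.03 and 6.62 in Col, against 5.12 in the mutant. The mutant array was the lowest of the 3. The difference was -1.21 ± 0.33 log2 (limma adjusted p = 0.0184).

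SWEET7, for which glucose and xylose transport has been shown in yeast cells, had log2 levels of 5.43 and 5.08 in Col, against 4.14 in the mutant. Here Col replicate 1 was the highest array, the reverse of SWEET6, and the mutant was again below both. The difference was -1.12 ± 0.31 log2 (limma adjusted p = 0.0197).

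SWEET8, also called RPG1, is known for its need in pollen wall formation. Its log2 level in Col was 6.26 on the first array and 7.12 on the second, against 5.58 in the mutant. The mutant was below both, but the Col arrays stood 0.86 log2 units apart, against a distance of 0.68 from the mutant to the nearer of them. The difference was -1.11 ± 0.36 log2 (limma adjusted p = 0.0390), which became -0.68 without Col replicate 2 and -1.53 without Col replicate 1.

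SWEET5, the other clade II gene, is known from the vegetative cell of pollen as VEX1. Its log2 level was 5.70 and 5.40 in Col, against 4.93 in the mutant, the lowest array. The difference of -0.63 ± 0.31 log2 did not pass the threshold (limma adjusted p = 0.147). Its 95% interval ran from -1.29 to 0.04 and so included the size of the fall of SWEET8.

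The count of lower genes rested on the processing. It was 6 of 7 with a variance trend, with a robust fit and after cyclic loess, 5 after median centring, 3 after quantile normalization and 1, SWEET2, when 16 was added to each intensity. In each of these settings the 6 genes kept a difference below 0. Over all probe sets, median centring moved the median difference from 0.10 to 0.21 log2. Relative to the median of all probe sets, SWEET6 differed by -2.34 and SWEET2 by -2.04, and the other 4 lower genes by -1.31 to -1.21. Centring also moved the share of calls that were lower, from 54.9% of all calls to 44.8%. The median over the 7 genes was -1.12 log2.

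The 6 falls were not all far out among the other transcripts on the array. Of all probe sets tested, 1.30% had a lower difference than SWEET6 and 2.86% a lower one than SWEET2. For the other 4 this share ran from 9.84% at SWEET4 to 11.3% at SWEET8. At least 2-fold below both Col arrays were SWEET2 and SWEET6, which is 2 of the 7 genes, where 9.67% of all probe sets met the same limit. Below both Col arrays at any distance were 6 of the 7 genes, against 37.4% of all probe sets. By mean level over the 3 arrays SWEET4 and SWEET7 were among the 5686 probe sets just below the median, of which 21.2% were called lower. SWEET2, SWEET3, SWEET6 and SWEET8 were among the 5686 just above it, of which 20.0% were called lower.

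**Figure D2:**
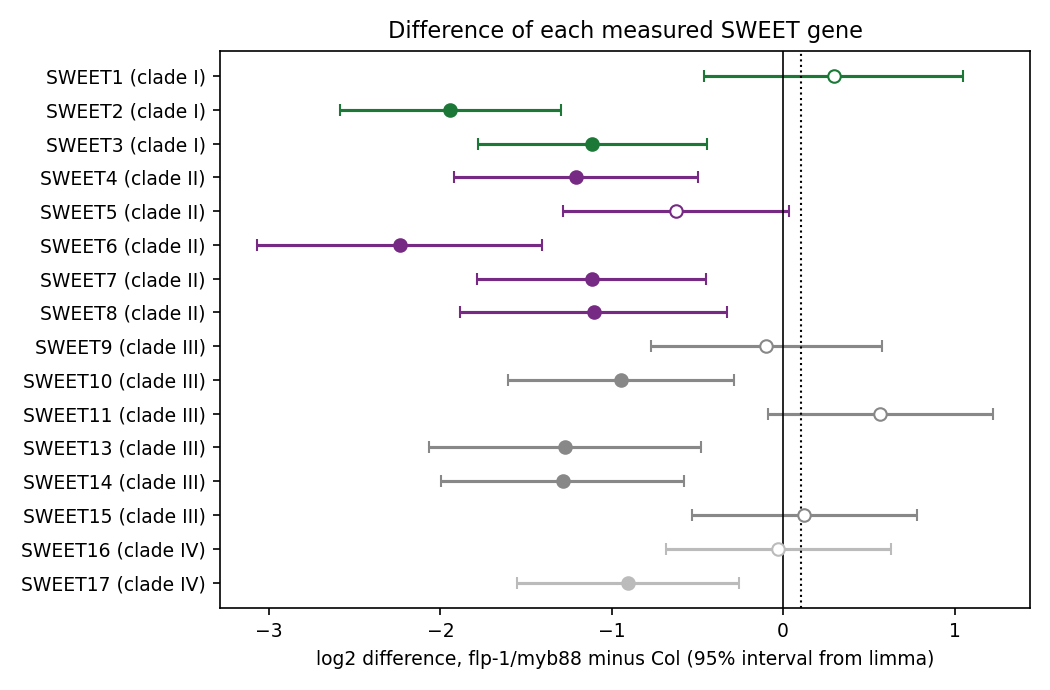
Log2 difference of flp-1/myb88 from Col (horizontal axis) for every SWEET gene measured, with 95% intervals from limma, filled symbols where the adjusted p was under 0.05 and open symbols where it was not. The dotted line is the median of all probe sets at 0.10, clade I is green, clade II purple and clades III and IV grey, and the 6 lower genes of clades I and II lie between -2.24 and -1.11.

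The Col arrays themselves stood in the same order at most of these genes. Col replicate 2 was above Col replicate 1 at SWEET1, SWEET3, SWEET4, SWEET6 and SWEET8. That is 5 of the 7, against 11861 of all 22746 probe sets. At SWEET1 the mutant lay between the Col arrays, and at the others it was below both. The median Col difference was 0.60 log2 over the 7, against 0.02 over all probe sets. Among all probe sets where Col replicate 2 was the higher, 21.8% were called lower in the mutant, and where it was the lower, 6.42% were. SWEET2 and SWEET7 had the opposite order of the Col arrays, and both were called lower. The mutant difference exceeded the gap between the Col arrays at 6 of the 7 genes and at 74.4% of all probe sets.

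**Figure D3:**
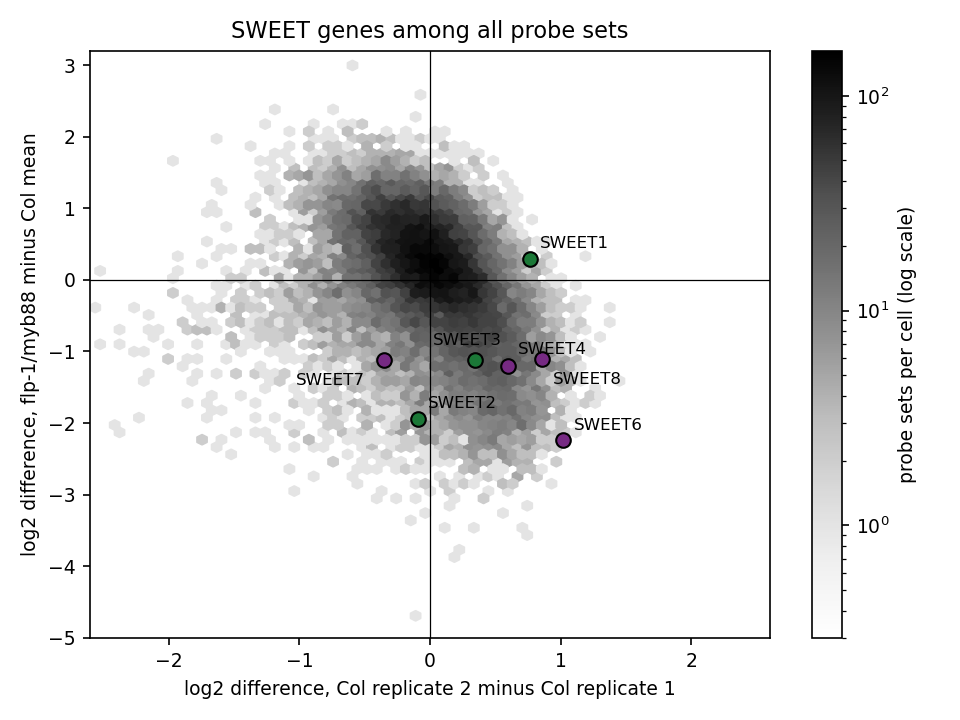
Difference between the Col arrays (horizontal axis, log2 of replicate 2 minus replicate 1) against the difference of flp-1/myb88 from the Col mean (vertical axis, log2), with all probe sets as grey cells shaded by their number on a log scale and the 7 SWEET genes as circles, green for clade I and purple for clade II; 4 probe sets lie outside the axes. SWEET2 and SWEET7 lie left of the vertical line at 0, and SWEET3, SWEET4, SWEET6 and SWEET8 lie right of it in the lower part of the cloud.

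Measures of RNA quality and brightness also moved with the mutant array. The plant control genes actin, GAPDH and ubiquitin each had 2 pairs of probe sets for the 3′ and 5′ ends, and the excess of the 3′ over the 5′ signal was greatest in the mutant for 6 of 6 pairs, for example 5.15 log2 units for the second actin pair, with Col at 3.45 and 3.17. The part of this in the SWEET falls was not tested, and with 1 mutant array it cannot be told apart from the genotype. The 27 probe sets for bacterial poly-A controls match no plant transcript. Their median log2 was 3.47 in the mutant and 3.10 and 3.04 in Col. The 923 probe sets annotated as pseudogenes had a lower median in the mutant, at 3.87 against 4.02 and 3.93 in Col. Of these 923, 305 were above both Col arrays in the mutant, against 11198 of all 22746 probe sets tested. The median level of all tested probe sets was 6.005 in the mutant, against 6.101 and 6.122 in Col. Their median difference of the mutant from Col was 0.10. The part of array brightness in the SWEET falls was not tested. Neither FLP nor MYB88 had a named probe set among those analysed here, so the label of the mutant array could not be checked on the mutated genes.

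Signal over background could be gauged only roughly, because probe sets differ in brightness. The highest bacterial control reached a log2 of 3.60 in Col and 4.0 in the mutant, and the 7 SWEET genes were above this on every array. SWEET7 in the mutant came closest, at 4.14. On the 3 arrays SWEET7 exceeded 75.1%, 70.1% and 62.2% of the 923 probe sets annotated as pseudogenes. SWEET2 exceeded 92.1% and 92.2% of them in Col and 86.9% in the mutant. Where a level is near background, the fold understates the change.

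Few tissue markers had a named probe set. The leaf genes LHCB4.1, PSAN and RCA, of light harvesting, photosystem I and Rubisco activation, had log2 levels from 10.05 to 11.78 over the 3 arrays. They differed by 0.47, 0.44 and 0.39 log2, with the mutant above both Col arrays, and none of the 3 passed the threshold. Of the root markers, the root hair expansin EXPA7 was at 4.54 and 3.78 in Col, against 4.0 in the mutant, while PYK10, a glucosidase of roots and seedlings, was at 11.66, 11.61 and 11.40. The guard cell markers with a named probe set, 2 of 8, were both lower in the mutant. Over all probe sets tested, 14.4% were called lower. BLUS1, a kinase of blue light signalling, fell by 0.98 log2 (limma adjusted p = 0.0293), and CHX20, a cation exchanger, fell by 0.91 (limma adjusted p = 0.0404). A lower difference than that of BLUS1 was found at 13.3% of all probe sets, and a lower one than that of CHX20 at 14.6%. The part of these 2 markers in the SWEET falls was not tested. No listed marker of pollen, anther or phloem companion cells had a named probe set, so these markers were not analysed here.

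The SWEET genes of clades III and IV fell at 4 of the 8 measured and rose at none, with a median of -0.50 log2. Of all probe sets, 14.4% were called lower and 11.9% higher, with a median of 0.10. Of clade III, the sucrose carriers, SWEET14 fell by 1.29 ± 0.33 log2 (limma adjusted p = 0.0135), SWEET13 fell by 1.28 ± 0.37 (limma adjusted p = 0.0233) and SWEET10 fell by 0.95 ± 0.31 (limma adjusted p = 0.0371). SWEET11, which with SWEET12 loads sucrose towards the phloem, had log2 levels of 9.53 and 9.28 in Col, against 9.97 in the mutant. Its difference of 0.57 ± 0.30 log2 did not pass the threshold (limma adjusted p = 0.183). SWEET9, the nectary carrier, differed by -0.10, and SWEET15, also called SAG29 and known from senescing leaves, by 0.12. Of clade IV, SWEET17 fell by 0.90 ± 0.30 log2 (limma adjusted p = 0.0412) and SWEET16 differed by -0.03. Whether clades I and II differ from clades III and IV was not tested.

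Most other genes of sugar transport and sucrose metabolism on the lists were not analysed here. Besides the SWEET genes, 6 of them had a named probe set: 5 carriers and 1 invertase. TMT2, which takes up sugar into the vacuole, was the one higher, by 1.02 ± 0.30 log2 (limma adjusted p = 0.0255), with 6.73 in the mutant and 5.61 and 5.80 in Col. It lay above both Col arrays, on the other side from the vacuolar SWEET2. TMT1 differed by 0.50 and TMT3 by -0.35, and the related carriers SFP1 and SFP2 by -0.56 and -0.42, none past the threshold. CWINV6, named for cell wall invertase, differed by -0.90 ± 0.35 log2 (limma adjusted p = 0.0701). Over all 14 measured genes of the lists, the 8 SWEET genes included, the median difference was -0.39 log2. Called lower were 4 and higher 1, against 14.4% and 11.9% of all probe sets.

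Other transcripts had nearly the same pattern over the 3 arrays. Likeness was measured as the Euclidean distance between log2 values after the Col mean was subtracted, over 3 arrays, and within 0.2 of a member lay from 34 of 22745 probe sets for SWEET6 to 574 for SWEET3. With so few arrays a close match is common. The transcripts named here are the nearest among probe sets of 1 gene with a symbol, and unnamed probe sets can lie nearer. By that choice, nearest to SWEET2 were AtLEA4-1, GSTU23 and SAL2, at distances of 0.040, 0.066 and 0.067. The nearest to SWEET6 with a symbol were GILT, RALFL25 and RR23, at 0.14, 0.22 and 0.23. SWEET3 was nearest to SIZ1, SGP1 and the plastid gene psbH, all within 0.036. SWEET4 was nearest to hemb2, AGL42 and the plastid gene petL, SWEET7 to AR781, CRK and CYP78A9, and SWEET8 to BGLU31, LCR80 and scpl33.

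Genes next to the fallen SWEET genes on the chromosome were lower at 3 of the 9 with a named probe set, out of 12 adjoining places, and none was higher, where 14.4% of all probe sets were called lower and 11.9% higher. Below both Col arrays were 7 of the 9, against 37.4% of all probe sets. The 3 are AT3G14780 beside SWEET2, at -1.85 log2, TRY beside SWEET3, at -1.84, and AT4G10843 beside SWEET7, at -1.74, and they were named after their values were seen. The genes on both sides of SWEET6 differed by -0.20 and -0.60, neither past the threshold. The median over the 9 was -0.30 log2, against 0.10 over all probe sets, and no test of these neighbours as a group was made.

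**Figure D4:**
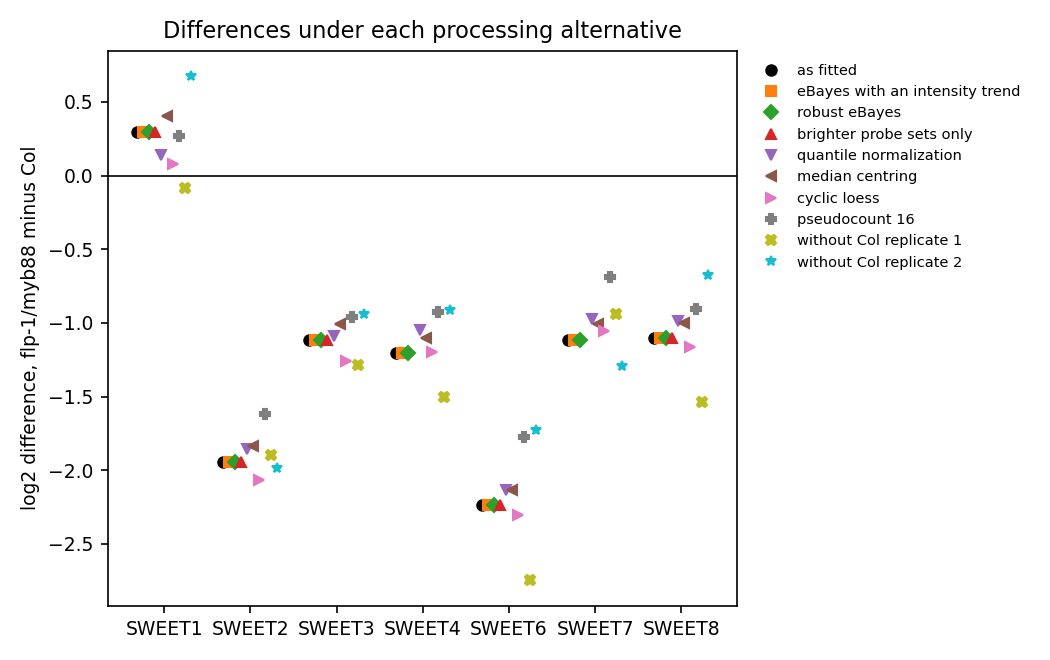
Log2 difference of flp-1/myb88 from Col (vertical axis) for the 7 SWEET genes as fitted and under each alternative processing, with 1 symbol per setting. All symbols lie below 0 for the 6 lower genes, while SWEET1 crosses 0 without Col replicate 1, and SWEET4 and SWEET7 have no symbol for the brighter probe sets because they fell under that filter.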

How the data were processed

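The authors deposited RMA intensities, per the submitters' processing notes, which are linear by their values, and the software is not stated in the sources used here. Biotin-labelled cDNA was amplified from 25 ng of total RNA, per the labels' protocols. Intensities were turned into log2 without a pseudocount. The table holds 22810 probe sets, and tests covered 22746, without 64 controls. The platform annotation pairs 13513 of these with 1 gene, 503 with several and 8730 with none. By gene ID, all 7 SWEET genes were found in the TAIR10.1 gene table, and 0 columns were left unused. The mutant was compared with Col by limma 3.58.1 in R 4.3.3 (lmFit, eBayes, two-sided, Benjamini-Hochberg over all probe sets, threshold 0.05). The fit had 1 residual degree of freedom, from the Col arrays alone, with the lone mutant array assumed to vary like Col, and 12.1 prior degrees of freedom. On simulated data the fit missed most changes of 1 log2 unit, near the size of the 4 smaller SWEET falls. Its share of false calls was above the nominal threshold there. That was also so at 2 log2 units, near the size of the SWEET2 and SWEET6 falls. Far fewer probe sets were changed in the simulation than were called here, so these shares cannot be carried over to the SWEET calls. The number of arrays limits the precision. Named genes are the members, the other SWEET genes, list genes past the threshold, and the 3 named transcripts nearest each called member. Members and lists were chosen with earlier results of these data known. The splits by Col order, pseudogenes, SWEET5 and chromosome neighbours, and the values of list genes and markers not past the threshold, were added after the values were seen. Alternatives were the variance fit, a filter at the median level, 3 normalizations, a pseudocount, fold limits of 1.5 and 3, and each Col array left out. No sequences of these genes were used here.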

Additional observations from a re-analysis of the deposited data

Results flagged for a closer look

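Control probe sets that entered no comparison set the mutant array apart. The 3′ minus 5′ log2 difference was larger in flp-1/myb88 than on both Col arrays in all 6 plant control pairs. It was 5.87 against 5.35 and 5.34 for the first actin pair, and 5.15 against 3.45 and 3.17 for the second. For GAPDH it was 3.39 against 2.49 and 2.51 in the first pair, and 1.66 against 0.74 and 0.55 in the second. For ubiquitin it was 2.35 against 2.26 and 2.1, and 2.46 against 2.22 and 2.0. The part of these differences in the SWEET falls was not tested.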

How the results depend on the processing

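No paired analysis was possible because the mutant has 1 array and shares no more than 1 replicate number with Col. Each of the 6 lower SWEET genes kept its direction in every alternative in which it was measured, and SWEET1 changed sign without Col replicate 1. Of the alternatives tried, calls were lost after quantile normalization for SWEET4 (-1.05), SWEET7 (-0.97) and SWEET8 (-0.99), after median centring for SWEET8 (-0.999), and with 16 added to each intensity for SWEET3 (-0.96), SWEET4 (-0.93), SWEET6 (-1.77), SWEET7 (-0.69) and SWEET8 (-0.91). In that last setting a raised floor shrinks the folds of dim probe sets by construction. Standard errors changed too, from 0.31 to 0.22 for SWEET3 and from 0.38 to 0.40 for SWEET6. At SWEET3 the standard error shrank by a larger share than the difference did, from -1.11 to -0.96, and its call was lost. The spread pooled over all probe sets and the adjustment for multiple tests were also computed anew in each setting. Why the calls were lost was not tested. Members called lower were then 3 after quantile normalization and 1 with 16 added. Over all probe sets, against 2700 higher and 3282 lower as fitted, quantile normalization left 1749 higher, adding 16 left 1123 higher and 1619 lower, and the filter, which tests fewer probe sets, left 1976 lower. For the sugar lists, higher calls went from 1 to 0 with the filter and with 16 added, and lower calls from 4 to 1 after quantile normalization, 2 after median centring and 0 with 16 added. Members below both Col arrays by the fold limit were 6 at 1.5-fold against 2 at 2-fold, and ranged from 3 to 5 when a Col array was left out. All probe sets above by that limit were 4247 at 1.5-fold and 83 at 3-fold, and from 1405 to 2665 with a Col array left out, and those below were 3887, 873 and from 2623 to 3487. Counts by test could not be made without a Col array, since no residual degrees of freedom remain, and no SWEET gene had another probe set to try. The deposited table holds no signal over background, which limits what can be said of SWEET7 in the mutant.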
